A study of Mus musculus with 13 samples.

Results

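The genes described here are the axon guidance ligands and receptors of the mouse retrosplenial cortex, a midline cortical area that receives thalamic and hippocampal input. They were chosen by name: semaphorins of classes 3 to 7, plexins, neuropilins, ephrins, Eph receptors, netrins with the netrin-G genes, Dcc, the Unc5 receptors, Slits and Robos. The name rule found 59 genes among the 15114 of a table of dissociated neurons and 74 among the 32285 of a table of brain sections, and the 15 found in the section table only include Ntng1, Ntng2 and Efna5. By family, the 74 were 20 semaphorins, 9 plexins, 3 antisense genes of Plxna4, 2 neuropilins, 8 ephrins, 14 Eph receptors, 6 netrins, 5 Dcc and Unc5 receptors, 3 Slits and 4 Robos.

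Guidance ligands are secreted or displayed at the cell surface and steer growing axons by attraction or repulsion. Class 3 semaphorins bind neuropilins or, for Sema3e, the plexin Plxnd1, and other semaphorins bind plexins directly. Ephrins bind Eph receptor tyrosine kinases, netrins bind Dcc and the Unc5 receptors, and Slits bind Robos. In the adult cortex many of these genes stay active, where they are known for roles in synapse formation and spine structure.

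All neurons came from wild-type B6 mice and none was treated. Per the labels, they were cut from acute brain slices, dissociated and pooled over slices, giving 765 cells in 11 samples from 3 animals, with 152, 304 and 309 cells. The columns name an anterior, medium or posterior dissection level for each cell. The second assay was Visium on 2 flash-frozen sections of 10 µm, called S4 (1022 spots) and S8 (951 spots), where a spot is a small area that can hold several cells.

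Totals of the 11 samples ran from 2306470 to 15974543 counts, and cells of animal 1 were the shallowest, at a median of 65843 counts against 132797 and 185995. No cell identifier was shared between samples, while 162 spot barcodes occurred in both sections. Excitatory markers summed to 335 to 1064 CPM (counts scaled to the library total) in every tested cluster and animal, and the 4 of 6 inhibitory markers in the table to at most 13 CPM. CPM of guidance genes in tested clusters, tested zones and dissection levels carry TMM factors. Marker values, untested clusters and values over all cells of an animal or all spots of a section do not. None of the 6 microglial markers was in the cell table.

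Neurons were grouped into 11 clusters with every guidance gene left out of the clustering, so that these genes did not draw the groups. Of these, 8 had enough cells for a test. Comparisons with other clusters cover these 8 only, unless cluster 9, 10 or 11 is named. Cluster 1 (203 cells) was marked by Calb1 and Otof, cluster 2 (122) by Scnn1a and Tnnc2, cluster 3 (76, all posterior) by Pdyn and Mc4r, cluster 6 (70) by Nxph2 and Ptprm, cluster 7 (65) by Nrtn and C1ql2, and cluster 8 (38) by Sncaip. Cluster 4 (74 cells) is called layer 6 intratelencephalic-like from Osr1, Oprk1 and Car12, and cluster 5 (71 cells) layer 6 corticothalamic-like from Foxp2, Syt6 and Rprm. The 4 corticothalamic markers also summed to 742 to 991 CPM in cluster 3, against 817 to 1076 CPM in cluster 5, but Syt6 was at 0 in cluster 3. Clusters 3 and 7 had the highest levels of the layer 5 extratelencephalic markers Bcl11b, Fezf2 and Chst8, the fourth, Parm1, was highest in cluster 2 (654 CPM, against 418 and 433 CPM in clusters 3 and 7), and Calb1 was high in clusters 1 and 8.

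Counts were summed per animal and cluster, and edgeR's quasi-likelihood test, blocked on the animal, set each cluster against the mean of the others. Calls needed a Benjamini-Hochberg adjusted p (over all genes) under 0.05 and a log2 fold change of 1 or more in size. Nothing in the labels goes beyond the animal. With the animal as block, p-values rest on the variation left among the 21 sums after cluster and animal effects (11 residual degrees of freedom). Of 58 guidance genes tested, 32 (55.2%) were called in at least 1 cluster, against 18.1% of all 13315 genes tested. The calls took in 15 of 29 ligands and 17 of 29 receptors. Over the 8 clusters there were 44 calls of higher and 19 of lower expression. The test averages log levels over clusters, so a gene absent from 1 cluster can be called in another: in 26 of the 44 higher calls and 5 of the 19 lower calls some cluster held 3 counts or fewer. No fold change is given for those, since it depends on the prior count. The gene was above the other clusters in every animal in 36 of the 44 higher calls and below them in every animal in all 19 lower calls.

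**Figure D1:**
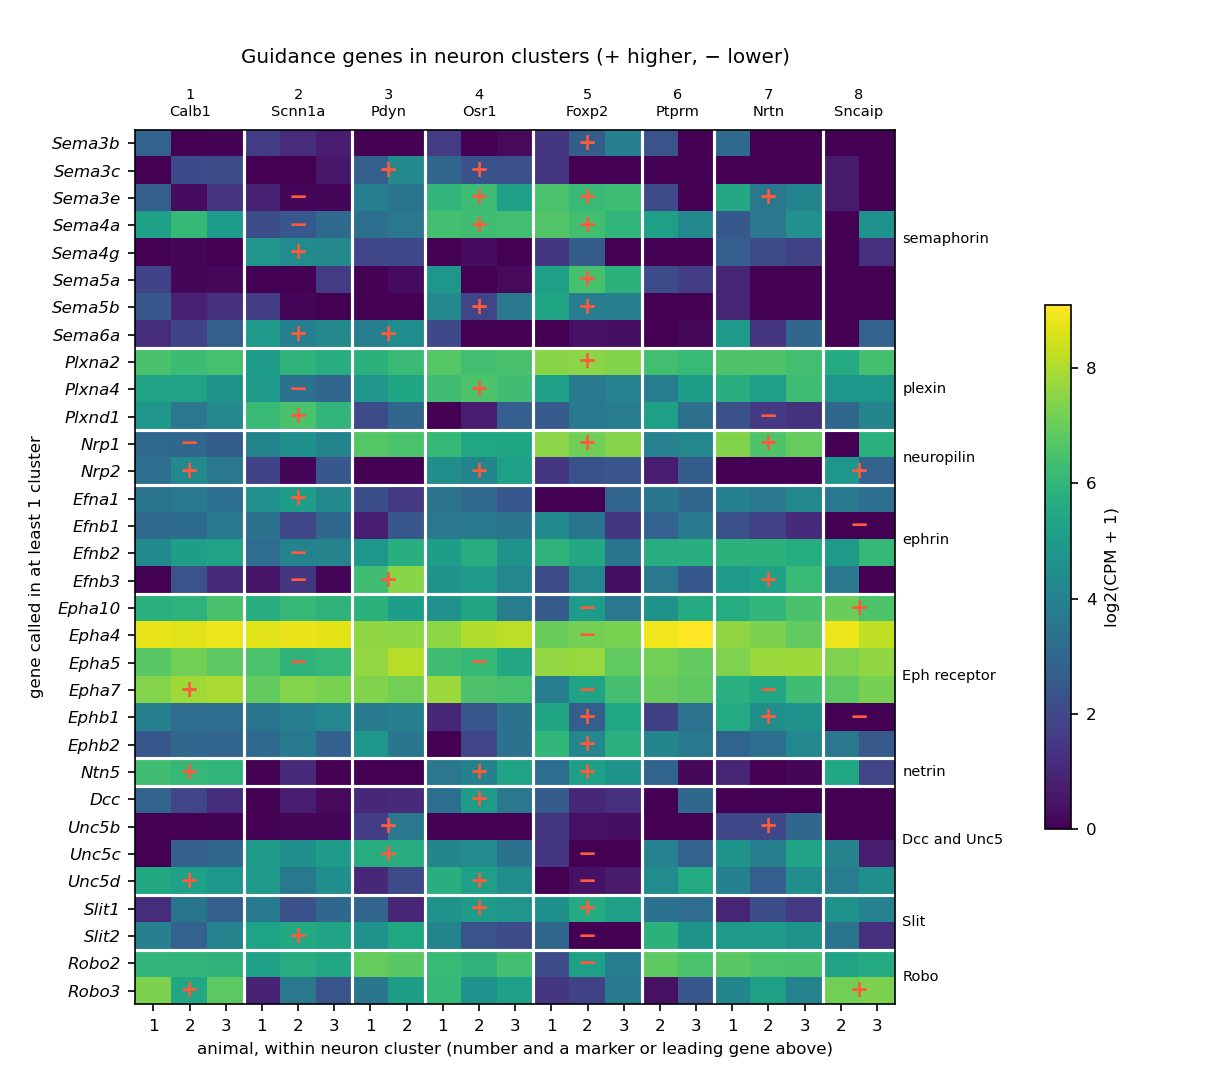
Level of the 32 guidance genes called in at least 1 neuron cluster, as log2(CPM + 1), with 1 column per animal and cluster and genes grouped by family. Plus and minus mark clusters where the gene was called higher or lower. Cluster 5 carries the most marks (18), and cluster 6 none.

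The 2 layer 6 clusters carried a shared set of semaphorins. In the layer 6 corticothalamic-like cluster 5, 11 of 58 guidance genes were called higher, against 3% of all genes tested, and 7 lower, against 2.21%. In the layer 6 intratelencephalic-like cluster 4, 10 were higher, against 3.57% of all genes, and 1 lower, against 1.52%. The higher genes of cluster 5 were Sema5a, Sema5b, Sema3b, Sema3e, Sema4a, Ntn5, Slit1, Ephb1, Ephb2, Nrp1 and Plxna2. Those of cluster 4 were Sema5b, Sema3e, Sema3c, Sema4a, Ntn5, Slit1, Dcc, Nrp2, Unc5d and Plxna4. The lower genes of cluster 5 were Unc5c, Unc5d, Slit2, Robo2, Epha10, Epha7 and Epha4, and that of cluster 4 was Epha5.

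Sema3e, the secreted ligand of Plxnd1, stood in cluster 5 at 91.8, 70.4 and 76.7 CPM in animals 1, 2 and 3, or 79.6 ± 11 (SD, n = 3). In cluster 4 it stood at 61.9, 75.5 and 36.4 CPM. Every one of these 6 values lay above the highest value of clusters 1, 2, 6 and 8, whose means were 0.284 to 2.52 CPM. In the untested cluster 11 Sema3e stood at 75.3 CPM, with counts in 6 of 11 cells. Cluster 7 was intermediate, at 44.3, 11.2 and 16.3 CPM, and exceeded the mean of the others in 1 of 3 animals, although it was called (adjusted p = 0.0162; 0.168 without animal 1 and 0.114 without animal 3). The adjusted p was 9.2e-06 in cluster 5 and 3.2e-05 in cluster 4, and both calls remained without each animal in turn. In cluster 2 the gene was called lower, at 0.854, 0.112 and 0.087 CPM, or 4 counts in all (adjusted p = 0.00632), a call lost without animal 2 (adjusted p = 1).

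Among the tested clusters, the transmembrane semaphorins Sema5a and Sema5b were highest in cluster 5. Sema5a stood at 34.6, 86.5 and 56.7 CPM there, or 59.3 ± 26.0 (SD, n = 3), and the other clusters averaged 1.94 CPM. The adjusted p was 0.000119. All 3 values lay above every value of the other tested clusters, of which the highest was 26.4 CPM in animal 1 of cluster 4. In the untested cluster 10 Sema5a stood at 91.3 CPM, with counts in 10 of 11 cells. Sema5b stood at 39.8, 13.6 and 13.8 CPM in cluster 5 (adjusted p = 8.3e-05) and at 18.3, 2.75 and 11.6 CPM in cluster 4 (adjusted p = 0.00086). The Sema5b ranges of these 2 clusters overlap, while the mean of each other tested cluster was at most 2.25 CPM. A count was found in 30 of 71 cells of cluster 5 for Sema5a and in 23 for Sema5b, and these calls remained without each animal in turn.

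Sema3e, Sema5a and Sema5b were called higher together in cluster 5, and Plxnd1, the receptor of Sema3e, in cluster 2. In cluster 4 Sema3e and Sema5b were called higher, and Sema5a was not called. The stretches before the start of these genes are shown for that reason. They are the 250 bases upstream of the RefSeq start (build GRCm38.p6, 5′ to 3′ on the gene's strand), at chr5:14025026-14025275 (plus), chr15:32244563-32244812 (plus), chr16:35541112-35541361 (plus) and chr6:115995006-115995255 (minus). Capitals mark GC boxes, GGGCGG or CCGCCC on the other strand, and adjoining boxes overlap.
Sema3e: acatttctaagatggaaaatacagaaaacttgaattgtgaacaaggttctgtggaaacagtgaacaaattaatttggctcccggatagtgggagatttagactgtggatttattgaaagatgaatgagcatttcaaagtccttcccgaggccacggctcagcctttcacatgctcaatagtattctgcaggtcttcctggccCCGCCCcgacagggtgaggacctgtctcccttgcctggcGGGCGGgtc
Sema5a: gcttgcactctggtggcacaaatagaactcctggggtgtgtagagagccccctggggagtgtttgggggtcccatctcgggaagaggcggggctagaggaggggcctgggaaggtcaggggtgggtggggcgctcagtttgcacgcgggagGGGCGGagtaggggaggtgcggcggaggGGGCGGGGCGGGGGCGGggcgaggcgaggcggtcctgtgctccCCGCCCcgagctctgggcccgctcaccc
Sema5b: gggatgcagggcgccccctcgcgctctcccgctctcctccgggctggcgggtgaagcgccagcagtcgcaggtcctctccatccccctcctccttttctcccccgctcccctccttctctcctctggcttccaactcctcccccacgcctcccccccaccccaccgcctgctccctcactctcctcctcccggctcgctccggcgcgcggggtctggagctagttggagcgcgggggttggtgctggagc
Plxnd1: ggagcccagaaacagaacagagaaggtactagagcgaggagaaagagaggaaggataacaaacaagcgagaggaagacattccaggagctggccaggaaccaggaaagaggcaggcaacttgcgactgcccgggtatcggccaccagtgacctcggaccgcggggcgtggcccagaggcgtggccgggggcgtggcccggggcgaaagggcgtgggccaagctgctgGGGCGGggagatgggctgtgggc
The GC content was 48.0% for Sema3e, 72.0% for Sema5a and Sema5b, and 64.8% for Plxnd1. Of 74 guidance genes, 61 had such a window, in 77 windows with a median GC content of 64.4%, against 52.4% over all 32851 windows of the table. A GC box was found in 54 of the 77 windows (70.1%) and in 32.7% of all windows, and a TATA box (TATAAA or TTTATA) in 2 (2.60%) and in 12.4%. The T-box site AGGTGTGA, with TCACACCT, was in none of the 77 and in 1.12% of all windows. A match describes the letters only.

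Receptors of cluster 5 moved in both directions. Nrp1, the co-receptor of class 3 semaphorins, stood at 180, 139 and 172 CPM in cluster 5, at 166, 94.7 and 123 CPM in cluster 7 and at 102 and 89.9 CPM in the 2 animals of cluster 3. In cluster 1 it stood at 7.68, 6.99 and 5.43 CPM. The log2 fold change against the mean of the other clusters was 2.34 ± 0.40 (SE) in cluster 5 (adjusted p = 0.000767), 1.90 ± 0.41 in cluster 7 (adjusted p = 0.00739) and -2.92 ± 0.60 in cluster 1 (adjusted p = 0.00493). The ranges of clusters 5 and 1 do not overlap. The call of cluster 7 was lost without animal 1 (adjusted p = 0.164) and that of cluster 1 without animal 1 (0.119) or animal 3 (1). Plxna2, a plexin of class 6 semaphorins and of neuropilin complexes, stood in cluster 5 at 177, 180 and 165 CPM. These lay above all other values of the tested clusters, of which the highest was 102 CPM. Its log2 fold change was 1.28 ± 0.18 (adjusted p = 0.000123). In the untested cluster 11 Plxna2 reached 301 CPM in animal 2 (3 cells).

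Unc5d, a netrin-family receptor, was nearly absent from cluster 5, at 0, 0.357 and 0.564 CPM, which is 3 counts in 3 of 71 cells. Summed counts per library total were 54.0 times lower there than elsewhere (95% exact interval 18.5 to 262, counting error only), and the adjusted p was 0.000168. The related Unc5c held 1 count there (133 times lower, interval 23.9 to 5259, adjusted p = 0.00647), a call lost without animal 2 (adjusted p = 0.135). Unc5d was called higher in cluster 4, at 50.7, 34.2 and 21.8 CPM (adjusted p = 0.00495), so the 2 layer 6 clusters lay on opposite sides for this receptor, with no overlap. The cluster 4 call was lost without animal 1 (adjusted p = 0.08) or 2 (0.0709). Epha4, an Eph receptor that binds A and B ephrins, stood in cluster 5 at 133, 145 and 152 CPM against a mean of 337 CPM elsewhere, with a log2 fold change of -1.10 ± 0.16 (adjusted p = 0.000178).

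**Figure D2:**
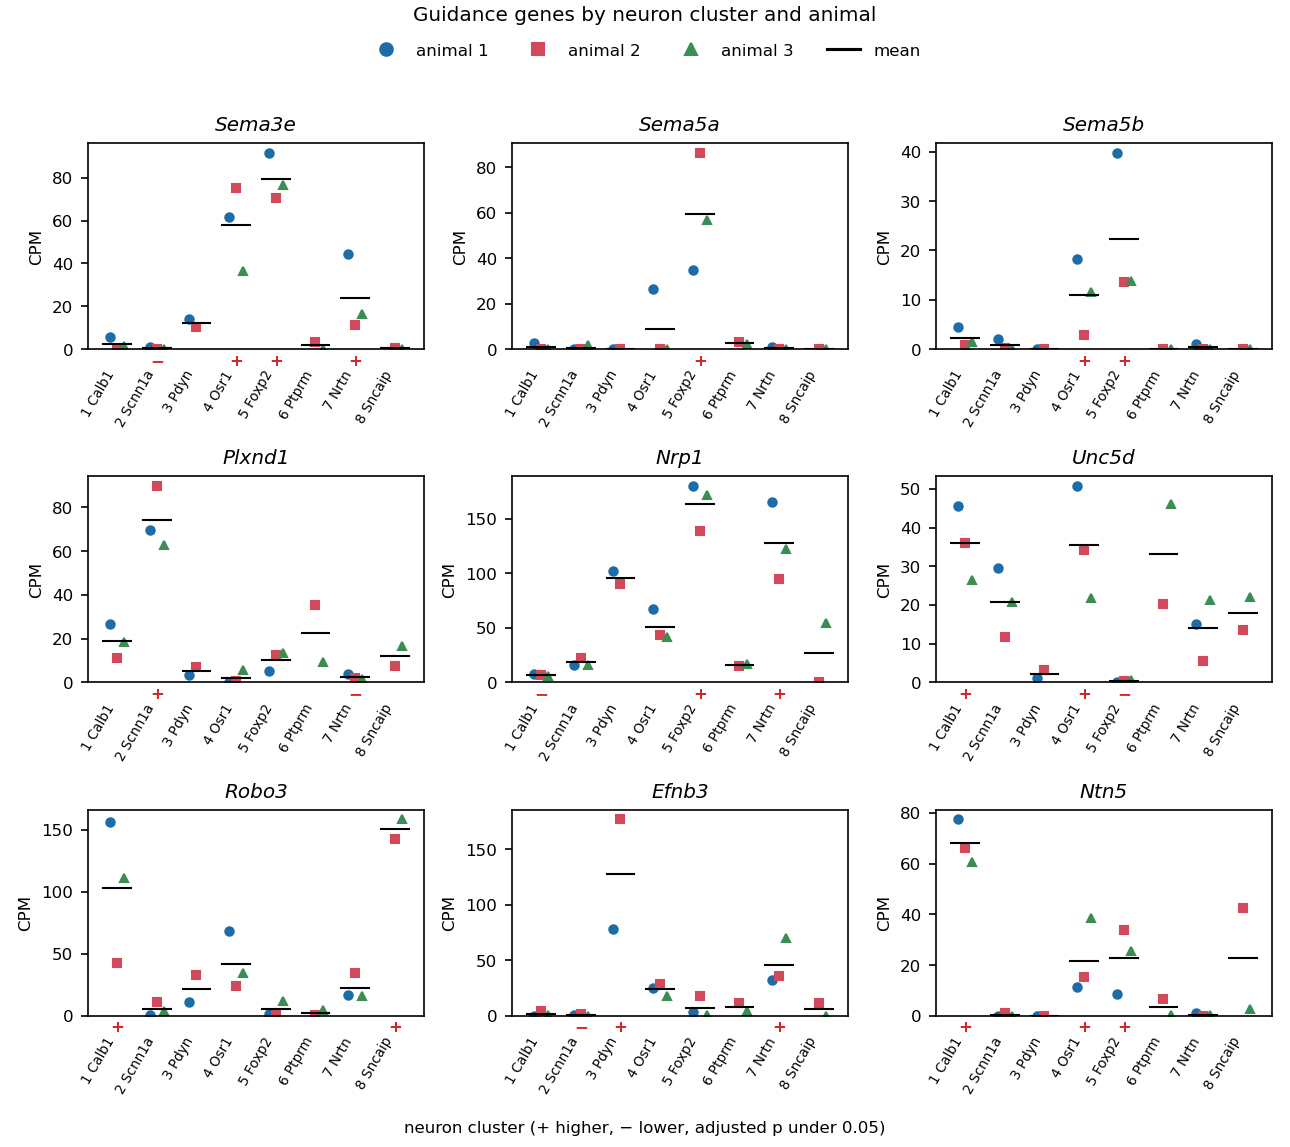
CPM of 9 guidance genes (vertical axes) in each tested neuron cluster (horizontal axes, number and a marker or leading gene). Points are animals, bars are means, and plus and minus mark calls. Sema3e is highest in clusters 4 and 5, Plxnd1 in cluster 2 (62.8 to 89.7 CPM), Robo3 in clusters 1 and 8, and Unc5d is near 0 in cluster 5.

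The netrin receptor Dcc stood at 24.8 CPM in the untested cluster 9, with counts in 6 of 24 cells. Of the tested clusters it was highest in cluster 4, at 9.13, 31.2 and 11.2 CPM, with counts in 15 of 74 cells. The mean of the other tested clusters was 1.59 CPM (adjusted p = 0.00202). Without animal 2 the adjusted p was 0.0544. Nrp2, the neuropilin of Sema3c and Sema3f, stood in the same cluster at 21.3, 16.1 and 35.1 CPM (adjusted p = 0.00108), and it was at 0 in every animal of clusters 3 and 7. Plxna4, a neuropilin partner, was at 78.1, 93.8 and 77.8 CPM, above all other values of the tested clusters. Animal 2 of the untested cluster 11 (3 cells) reached 98.3 CPM. In cluster 4 the log2 fold change of Plxna4 was 1.63 ± 0.33 (adjusted p = 0.00369, and 0.0805 without animal 2). Epha5 was lower, at 79.1, 67.2 and 43.7 CPM, with a log2 fold change of -1.27 ± 0.21 (adjusted p = 0.000563), a range that overlaps with that of cluster 2.

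Cluster 2, marked by Scnn1a, showed the reverse of the Sema3e pattern. Of 58 guidance genes 5 were called higher, against 4.84% of all genes tested, and 6 lower, against 2.19%. Plxnd1, the receptor of Sema3e, stood there at 69.6, 89.7 and 62.8 CPM, with a count in 100 of 122 cells. These lay above every value of the other tested clusters, of which the highest was 35.4 CPM. In the untested cluster 10 Plxnd1 reached 88.3 CPM in animal 1 (4 cells). The log2 fold change in cluster 2 was 3.31 ± 0.46 (adjusted p = 6.3e-05), and the adjusted p stayed between 0.000224 and 0.00562 without each animal in turn. In cluster 7 Plxnd1 was called lower, at 3.77, 1.87 and 1.54 CPM (log2 fold change -2.57 ± 0.75, adjusted p = 0.0488), and that call was lost without any 1 animal (adjusted p 0.0938 to 0.271). Across the 8 clusters the mean log2 levels of Sema3e and Plxnd1 had a Pearson r of -0.74 and a Spearman rho of -0.71. These are 8 points from the same libraries, given as a description.

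The other higher genes of cluster 2 were Sema4g, Sema6a, Slit2 and Efna1. Sema4g, a transmembrane semaphorin, stood at 25.6, 20 and 18.7 CPM, above all other values, of which the highest was 5.65 CPM (adjusted p = 7.1e-05). Sema6a, a ligand of Plxna2 and Plxna4, stood at 29, 14 and 18.6 CPM (adjusted p = 0.00401), and its range overlapped with those of clusters 3 and 7. Both calls remained without each animal in turn. The lower genes were Sema3e, Sema4a, Efnb2, Efnb3, Epha5 and Plxna4. Efnb3, a membrane-bound ligand of Eph receptors that can also signal in reverse, was at 0.427, 1.68 and 0.087 CPM there (log2 fold change -4.34 ± 0.93, adjusted p = 0.00401), and the call was lost without animal 1 (adjusted p = 0.0564) or 2 (1). Slit2, a secreted Robo ligand, stood at 38.0, 43.8 and 38.4 CPM in cluster 2 and was at 0 in 2 of 3 animals of cluster 5, where its 4 counts came from 1 cell. Its highest mean was in cluster 6, at 40.9 CPM. The cluster 2 call of Slit2 was lost without animal 2 or 3, with sums per sample and with sums of at least 5 cells.

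Clusters 3 and 7, highest in 3 of the 4 extratelencephalic markers, shared Efnb3 and Unc5b. In cluster 3, 5 guidance genes were called, each of them higher, where 1.69% of all genes were higher and 0.924% lower. In cluster 7, 5 were higher, against 2.54%, and 2 lower, against 1.13%. Efnb3 stood at 77.9 and 177 CPM in the 2 animals of cluster 3 and at 32, 35.8 and 69.8 CPM in cluster 7. These lay above all values of the other 6 tested clusters, of which the highest was 28.7 CPM. In the untested cluster 11 Efnb3 stood at 50.5 CPM, with counts in 4 of 11 cells. The log2 fold change was 4.13 ± 0.63 in cluster 3 (adjusted p = 0.00063) and 3.32 ± 0.57 in cluster 7 (adjusted p = 0.00114), and without animal 1, which leaves cluster 3 with 1 animal, the adjusted p of cluster 3 was 0.0855.

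Unc5b, a netrin receptor best known from blood vessels, had counts in 6 of 76 cells of cluster 3 and 9 of 65 cells of cluster 7 and was at 0 in clusters 4, 6 and 8. In cluster 3 it stood at 2.13 and 11.5 CPM, and 1 cell gave 47.8% of its counts (adjusted p = 0.00651). In cluster 7 it stood at 2.83, 2.90 and 6.92 CPM (adjusted p = 0.00338). DESeq2 gave an adjusted p of 0.0964 in cluster 3 and none in cluster 7, and leaving out animal 2 gave edgeR adjusted p values of 0.622 and 0.0699. Cluster 3 was also called higher for Sema3c, at 5.69 and 19.7 CPM (adjusted p = 0.0221; 0.0901 without animal 1, 0.572 without animal 2 and 0.0834 with DESeq2), Sema6a (adjusted p = 0.0381; 0.822 without animal 2) and Unc5c (adjusted p = 0.0376; 0.25 without animal 1). Cluster 7 was also called higher for Nrp1, Sema3e and Ephb1, an ephrin-B receptor at 47.1, 21.5 and 24.4 CPM (adjusted p = 0.00708; 0.0912 without animal 1 and 0.0749 without animal 2), and lower for Plxnd1 and Epha7. Epha7 stood there at 53.7, 41.4 and 77.8 CPM (log2 fold change -1.14 ± 0.33, adjusted p = 0.0446) and was not called without any 1 animal (adjusted p 0.0536 to 0.347).

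The 2 Calb1-rich clusters shared Robo3, a divergent Robo receptor known from midline crossing in the hindbrain and spinal cord. In cluster 1, 5 guidance genes were called higher, against 3.12% of all genes, and 1 lower, against 0.631%. In cluster 8, 3 were higher, against 1.98%, and 2 lower, against 2.05%. Robo3 stood at 156, 42.5 and 111 CPM in cluster 1 and at 142 and 158 CPM in the 2 animals of cluster 8. The log2 fold change was 2.68 ± 0.51 (adjusted p = 0.00255) and 3.21 ± 0.56 (adjusted p = 0.00188), and the cluster 1 range overlapped with that of cluster 4 (24.1 to 68.0 CPM). Without animal 1 the call of cluster 1 was lost (adjusted p = 0.08).

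Ntn5, a netrin-like secreted gene, stood at 77.5, 66.2 and 60.6 CPM in cluster 1, with counts in 113 of 203 cells, above all other values, of which the highest was 42.5 CPM (adjusted p = 7.4e-05). It was at 0 in cluster 3. Ntn5 was also called higher in clusters 4 and 5, although there it exceeded the mean of the other clusters in 1 and 2 of 3 animals, and the cluster 4 call was lost without animal 3 (adjusted p = 0.107). Its locus overlaps the protein-coding gene Sec1, and counting is not stated to use strand, so reads of the 2 genes cannot be told apart. Nrp2 in cluster 1 stood at 8.96, 18.3 and 11.4 CPM (adjusted p = 0.00962; 0.0818 without animal 1 and 0.0696 without animal 2). Unc5d and Epha7 completed the higher genes of cluster 1, and Nrp1 was its lower gene.

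In cluster 8 Ephb1 and Efnb1, a receptor and a ligand of the ephrin-B system, had 0 counts in 38 cells from 2 animals. Against a floor of 3 counts over the cluster, Ephb1 was at least 14.6-fold lower (adjusted p = 0.0071) and Efnb1 at least 7.92-fold lower (adjusted p = 0.0356) than in the other clusters. Ephb1 was not called without animal 2 (adjusted p = 0.0864) or 3 (0.146), nor Efnb1 without any 1 animal (0.0627 to 0.274). Epha10, an Eph receptor without kinase activity, stood at 130 and 93.9 CPM (log2 fold change 1.35 ± 0.39, adjusted p = 0.0494), a call also lost without any 1 animal (0.0638 to 0.227), and Nrp2 was the third higher gene (27.2 and 6.22 CPM, adjusted p = 0.0177; 0.0524 without animal 1). Cells of cluster 8 were shallow, at a median of 77922 counts, and the 6 astrocyte markers summed there to 603 to 865 CPM, against 10.0 to 333 CPM in the other clusters, with Aqp4 and Gfap at 0. Aldoc alone stood at 730 CPM there, and Gja1, S100b and Slc1a3 at 2.13, 1.44 and 0.287 CPM. The part of depth and of these markers in the calls of cluster 8 was not tested.

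Cluster 6, with Nxph2, Ido1 and Ptprm among its 10 leading genes by fold, had no guidance gene called by edgeR (0 higher against 1.32% of all genes tested and 0 lower against 0.263%), with 14 of 58 at an unadjusted p under 0.05. DESeq2 called 1 higher and 1 lower. The nearest was Epha4, at 480 and 548 CPM in 2 animals, with a log2 fold change of 0.99 ± 0.16 (adjusted p = 0.00145).

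Of the 63 calls in all clusters, 18 were made under every alternative in which the gene was tested, leaving out each animal in turn included. They are Ntn5 in clusters 1 and 5; Plxnd1, Sema4g and Sema6a in cluster 2; Sema3e, Sema5b, Nrp2 and lower Epha5 in cluster 4; Sema3e, Sema5a, Sema5b, Nrp1, Plxna2 and lower Epha4 and Unc5d in cluster 5; Efnb3 in cluster 7; and Robo3 in cluster 8. Sums per sample could be fitted for clusters 1, 2, 3 and 6 only, where 11 of the 21 calls tested remained. Calls in clusters 4, 5, 7 and 8 were thus not put to that alternative. Oligodendrocyte markers, which a neuron should lack, summed to at most 244 CPM in clusters 1, 2, 3, 5, 6 and 8 and reached 690 CPM in cluster 4 and 1151 CPM in cluster 7, and their part in the results was not tested.

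**Figure D3:**
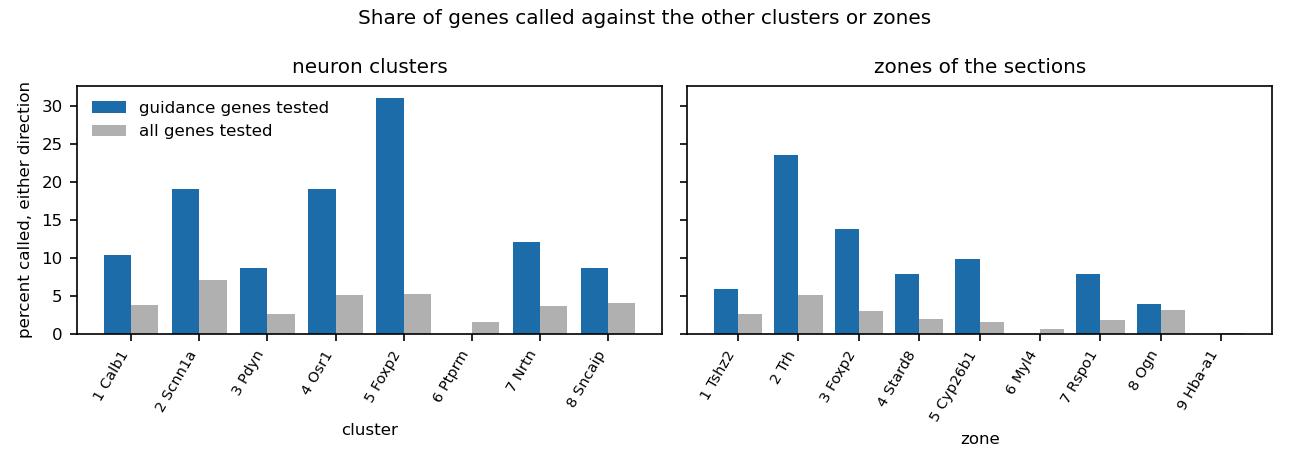
Percent of guidance genes tested (blue) and of all genes tested (grey) called in either direction in each neuron cluster (left) and each zone of the sections (right). The guidance share is above the share of all genes in every cluster but cluster 6 and in every zone but zones 6 and 9. It reaches 31.0% in cluster 5, against 5.21% of all genes, and 23.5% in zone 2, against 5.01%.

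The sections show these genes in tissue, in samples other than those of the dissociated cells. Spots were grouped into zones, again without the guidance genes, and the 9 zones with enough spots in both sections were tested by the same model, blocked on the section (n = 2). Of 74 guidance genes 51 had enough counts to be tested, and 23 of these (45.1%) were called in at least 1 zone, against 12.6% of 10684 genes. Every one of the 17 higher and 20 lower calls went the same way in both sections. In a spot, fewer cells of a type and less RNA per cell cannot be told apart.

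Zone 3 had Foxp2 and Syt6 among its 10 leading genes by fold, as had the corticothalamic-like cluster 5 among its markers. The layer 6b markers Ccn2, Cplx3, Nxph4 and Moxd1 also summed highest in zone 3, at 149 to 160 CPM, against 107 to 118 CPM in zone 5. Of 3 layer 6b markers tested, 2 were called higher in zone 3, and their part was not tested. In zone 3, 3 guidance genes were called higher, against 1.54% of all genes, and 4 lower, against 1.39%. Sema3e stood at 81.5 (S4) and 65.3 CPM (S8), where the other zones held 2.27 to 32.2 CPM, with a log2 fold change of 2.57 ± 0.20 (SE, adjusted p = 2.8e-15). Sema5b stood at 25.1 and 26.7 CPM, above the 18.3 CPM of zone 5, with a log2 fold change of 1.75 ± 0.29 (adjusted p = 1.2e-05). Ephb6, an Eph receptor that lacks kinase activity, was the third, at 105 and 121 CPM (log2 fold change 1.09 ± 0.16, adjusted p = 7.8e-07). Plxnd1 was lower, at 4.18 and 22.8 CPM (log2 fold change -1.97 ± 0.28, adjusted p = 3.1e-07), as were Unc5d, at 10.5 and 13.9 CPM (-1.74 ± 0.27, adjusted p = 1.9e-06), Slit2 and Robo1, the last 2 not with DESeq2 (adjusted p = 0.0891 and 0.101).

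Set beside cluster 5, 16 of its 18 called genes were tested in the zones. In zone 3, 15 of these 16 had the same sign and 4 were called in the same direction (Sema3e and Sema5b higher, Unc5d and Slit2 lower). Of all 529 genes called in cluster 5 and tested in the zones, 445 (84.1%) had the same sign in zone 3 and 115 (21.7%) were called in the same direction, so the share of guidance genes called in both is near that of all genes. Sema5a had a log2 difference of 0.72 there (adjusted p = 0.137), and Slit1 was the one of opposite sign (-0.07). Oligodendrocyte markers were highest in zone 3, at 5241 to 6419 CPM against 763 to 3590 CPM in the other zones, and their part in these differences was not tested. In the dissociated cells of cluster 5 those markers summed to 41.0 to 83.6 CPM, which does not measure their part in zone 3.

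**Figure D4:**
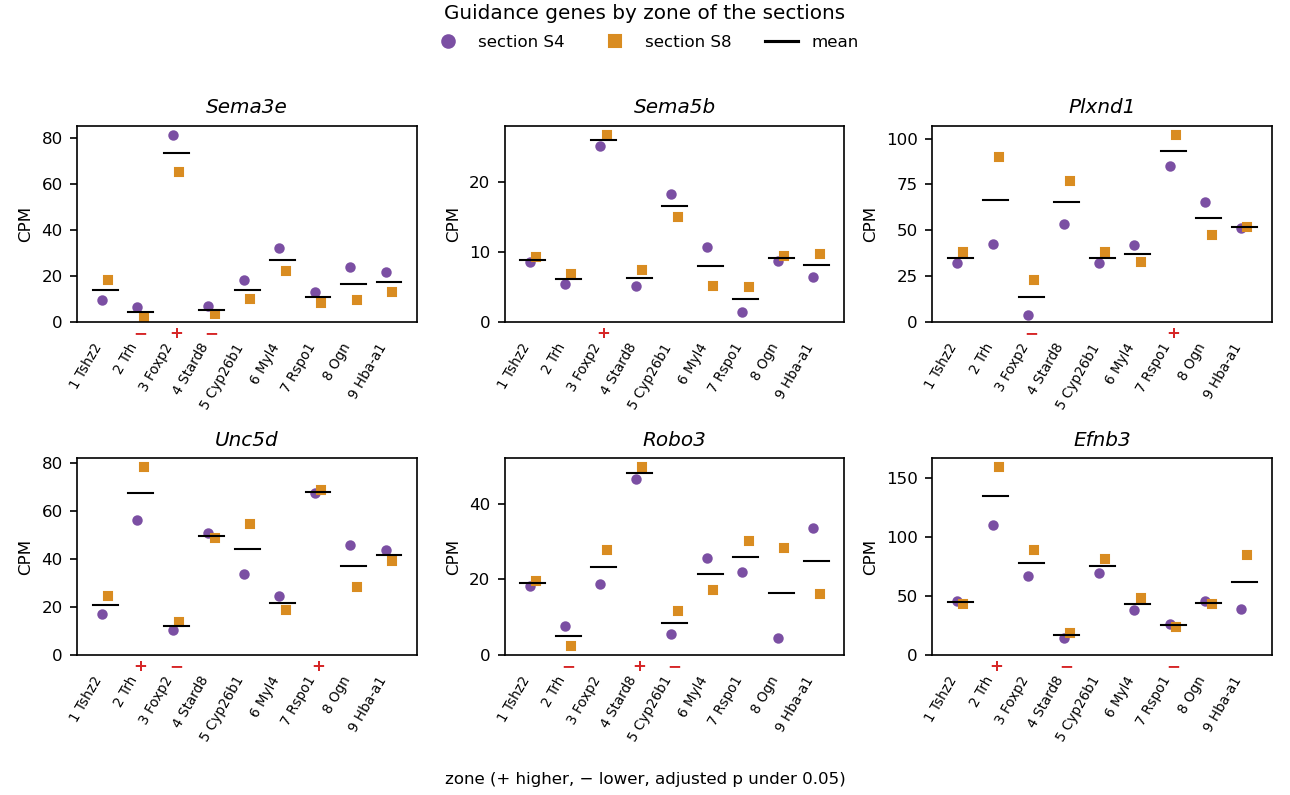
CPM of 6 guidance genes (vertical axes) in each of 9 zones (horizontal axes, number and a leading gene); points are sections S4 and S8, bars are means, and plus and minus mark calls. Zone 3 is highest for Sema3e (65.3 and 81.5 CPM) and Sema5b and lowest for Plxnd1 and Unc5d.

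Plxnd1 was highest in zone 7, which has Rspo1 and Scnn1a among its leading genes and the highest Rorb level of the zones. In zone 7, 3 guidance genes were higher, against 1.23% of all genes, and 1 lower, against 0.58%. Plxnd1 stood at 84.8 and 102 CPM (log2 fold change 1.15 ± 0.20, adjusted p = 3.5e-05), a range that zone 2 reached in S8 only (89.8 CPM). Epha4 stood at 284 and 218 CPM (1.08 ± 0.12, adjusted p = 6.2e-09) and Unc5d at 67.3 and 68.6 CPM (1.04 ± 0.20, adjusted p = 0.000245), the last not called in zones drawn with the guidance genes. Efnb3 was lower, at 26.3 and 23.4 CPM (-1.08 ± 0.25, adjusted p = 0.00295). Across the 9 zones the mean log2 levels of Sema3e and Plxnd1 had a Pearson r of -0.82 and a Spearman rho of -0.70, again as a description over 9 points.

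Cluster 2 shares its marker Scnn1a with zones 1 and 7 (12.1 and 11.2 CPM, at most 4.71 CPM elsewhere). Zone 1 has Prph and Tshz2 among its leading genes and is highest in Hsd11b1. The markers Tnnc2, Eps8l2 and Hsd11b1, listed with Scnn1a, stood at 4.79, 10.2 and 87.7 CPM in zone 1. In zone 7 they stood at 0, 2.37 and 25.8 CPM. Rorb, highest in zone 7 (162 CPM), stood at 0.13 CPM in cluster 2. Of the 11 genes called in cluster 2, 10 were tested in the zones. In zone 7, 7 of them had the same sign and 2, Plxnd1 and Efnb3, were called in the same direction. In zone 1, 5 had the same sign and 0 were called in the same direction. Of all 645 genes called in cluster 2 and tested in the zones, 66.4% had the same sign in zone 7 and 67.3% in zone 1, and 8.84% and 10.2% were called in the same direction. Plxnd1 stood in zone 1 at 32 and 38.3 CPM, with a log2 difference of -0.43 (adjusted p = 0.254). The calls of zone 1 were 1 higher, against 1.39% of all genes, and 2 lower, against 1.19%. Ntng1, a membrane-anchored netrin of thalamic axons that was not in the cell table, was higher at 49.1 and 48.7 CPM (1.33 ± 0.20, adjusted p = 2.5e-06), and the next highest zone was zone 5, at 38.4 and 33.2 CPM. Sema3a, a repellent of cortical axons, was lower at 10.7 and 9.28 CPM (-1.13 ± 0.33, adjusted p = 0.0167; 0.107 with DESeq2), and Efnb1 at 4.26 and 2.32 CPM (-1.74 ± 0.54, adjusted p = 0.0263; no adjusted p with DESeq2).

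Zone 4, with Clec18a, Ccbe1 and Otof among its leading genes, shares Otof with cluster 1. There 2 guidance genes were higher, against 0.973% of all genes, and 2 lower, against 1.01%. Robo3 stood at 46.6 and 49.7 CPM, above all other zones, of which the highest value was 33.5 CPM (1.61 ± 0.23, adjusted p = 1.1e-06). Ntn5 stood at 19.9 and 18.6 CPM (1.14 ± 0.33, adjusted p = 0.0226; 0.221 with DESeq2), which overlaps with zone 8 (13.1 and 19.0 CPM). Robo3 and Ntn5 were thus called in both zone 4 and cluster 1, out of 5 called genes of cluster 1 tested in the zones, but Ntn5 in zone 4 neither with DESeq2 nor without the section block. Of all 360 genes called in cluster 1 and tested in the zones, 88 (24.4%) were called in the same direction in zone 4. Efnb3 was lower in zone 4, at 14.7 and 18.6 CPM (-1.74 ± 0.23, adjusted p = 2.3e-07), and so was Sema3e, at 6.91 and 3.73 CPM (-1.61 ± 0.39, adjusted p = 0.00404; 0.0625 with DESeq2).

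Zone 2, with Trh and Dlk1 among its leading genes, had the most calls. In it 4 guidance genes were higher, against 2.38% of all genes, and 8 lower, against 2.63%. Efnb3 stood at 110 and 159 CPM, above every other zone, of which the highest value was 89.0 CPM (1.62 ± 0.15, adjusted p = 3.6e-13). Nrp2 stood at 33.0 and 39.8 CPM (1.61 ± 0.25, adjusted p = 1.6e-06) and Slit1 at 57.1 and 39.8 CPM (1.33 ± 0.20, adjusted p = 1.3e-06). Unc5d was the fourth, not called in zones drawn with the guidance genes. The lower genes were Robo3, at 7.69 and 2.27 CPM (-2.01 ± 0.43, adjusted p = 0.000488), Sema3e, at 6.59 and 2.27 CPM (-1.92 ± 0.43, adjusted p = 0.000722), and Sema7a, Ephb1, Epha10, Sema3a (adjusted p = 0.0535 with DESeq2), Ephb6 and Epha7. Sema7a, a membrane-anchored ligand of Plxnc1, stood at 15.4 and 23.9 CPM in zone 2 while Plxnc1 stood at 52.7 and 73.9 CPM, and the pair had a Spearman rho of -0.90 over the 9 zones and of -0.60 over the 8 clusters.

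Zone 5, with Cyp26b1 and Ccn2 among its leading genes, had 2 guidance genes higher, against 0.917% of all genes, and 3 lower, against 0.636%. Slit1 stood there at 42.0 and 39.8 CPM (1.05 ± 0.22, adjusted p = 0.000814) and Nrp2 at 22.8 and 31.5 CPM (1.07 ± 0.28, adjusted p = 0.0117), both also called in zone 2. Slit1 was not called in zone 5 when zones were drawn with the guidance genes. Ntn5 was lower, at 1.83 and 4.97 CPM (-1.83 ± 0.58, adjusted p = 0.0494), as were Ephb3, at 5.48 and 3.32 CPM (-1.48 ± 0.45, adjusted p = 0.0418), and Robo3. DESeq2 called none of these 3 lower genes (adjusted p 0.226 to 0.272), nor Nrp2 in zone 5 (0.119). Zone 8, with meningeal genes such as Ogn and Slc13a4, had 2 calls, both higher, where 2.84% of all genes were higher and 0.262% lower. They were the plexins Plxnb1, at 43.7 and 75.8 CPM (1.10 ± 0.30, adjusted p = 0.016), and Plxnb2, at 74.3 and 33.2 CPM (1.02 ± 0.28, adjusted p = 0.0148), receptors of class 4 semaphorins. Neither was called without the section block or with genes scaled to unit variance before clustering, and DESeq2 gave Plxnb2 an adjusted p of 0.08. A share of 2 of 51 is near that of all genes. Astrocyte markers summed to 2707 to 3291 CPM in zone 8 against 1071 to 2007 CPM elsewhere, endothelial and mural markers to 354.6 to 381 CPM against 91.8 to 228 CPM, and microglial markers to 280.4 to 540.0 CPM against 137 to 222 CPM. Of these lists 5 of 6, 5 of 6 and 4 of 6 markers were called higher, as were all 5 meningeal markers tested, and their part was not tested.

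Zones 6 and 9 had 0 calls by edgeR and 0 by DESeq2, with 11 and 1 of 51 genes at an unadjusted p under 0.05. In zone 6, 0.393% of all genes were called higher and 0.243% lower, and in zone 9, the zone of hemoglobin genes, 0.0749% and 0%. In zone 6 Sema3e had a log2 difference of 0.98 ± 0.28 (adjusted p = 0.0455), just under the fold threshold. Of the 37 calls in zones, 18 were made under every alternative in which the gene was tested: Sema3e, Sema5b, Ephb6, Plxnd1 and Unc5d in zone 3, Efnb3, Nrp2, Slit1, Robo3, Sema3e, Sema7a, Ephb1 and Epha10 in zone 2, Robo3 and Efnb3 in zone 4, and Plxnd1, Epha4 and Efnb3 in zone 7. The other 19 were lost under at least 1.

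Dissection level was compared in 2 ways, on all neurons and on equal numbers of cells per cluster drawn from both levels of an animal. In all neurons, 1 of 59 guidance genes was called between posterior and anterior cells, against 0.0299% of 13373 genes (4 genes). This was Efnb3, at 5.60, 10.8 and 1.67 CPM in anterior and 46.1, 92.5 and 28.2 CPM in posterior cells of animals 1, 2 and 3. The groups do not overlap, and the log2 fold change was 3.40 ± 0.30 (SE, n = 3 animals, adjusted p = 0.0429), while edgeR called none of the guidance genes without any 1 animal or without the animal block, and DESeq2 called 3. At an unadjusted p under 0.05 there were 10 of 59, against 7.22% of all genes. Among the other called genes were Lypd1, higher in posterior cells, and Ptgds, a prostaglandin D synthase abundant in oligodendrocytes and meninges, lower in posterior cells (log2 fold change -6.95), whose part in the Efnb3 difference was not tested. Cluster 3, whose 76 cells were all posterior, held 46.3% of all Efnb3 counts.

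In matched cells, which leave out cluster 3, Efnb3 stood at 9.66, 4.62 and 2.41 CPM in anterior and 10.8, 24.6 and 10.1 CPM in posterior cells. The log2 difference was 1.61 ± 0.67 (adjusted p = 0.965), higher in 3 of 3 animals. No guidance gene of 55 was called in this comparison by edgeR, as was no gene of 12019 (0%), and 7 of the 55 had an unadjusted p under 0.05, against 5.07% of all genes. DESeq2 called 0 guidance genes too. Among the 7 were Nrp1 (log2 difference 1.23 ± 0.35, adjusted p = 0.963, higher in 3 of 3 animals), Plxna2, Plxnb1, Sema6a, Unc5d and Epha7, chosen for mention after their values were seen.

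**Figure D5:**
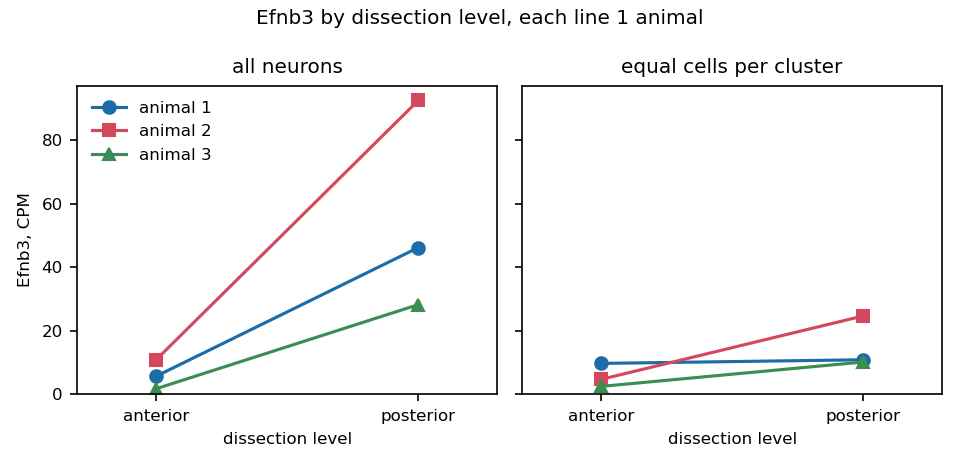
Efnb3 CPM (vertical axis) in anterior and posterior neurons of each animal (1 line per animal), for all neurons on the left and for equal numbers of cells per cluster on the right. Posterior values are 28.2 to 92.5 CPM in all neurons and 10.1 to 24.6 CPM in matched cells.

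Between medium and anterior cells, 0 guidance genes were called by edgeR in matched cells (57 tested; 0% of 12862 genes called; 3 at an unadjusted p under 0.05, against 2.34%) and 0 in all neurons (57 tested; 0.00757% of 13207 genes called; 5 at an unadjusted p under 0.05, against 3.16%), and DESeq2 called 0 in either. The largest in size of the 5 was Sema5a, with a log2 difference of 1.43 ± 0.51 (adjusted p = 0.955). Robo3 had -0.995 ± 0.253 in all neurons and -0.745 ± 0.252 in matched cells (adjusted p = 0.955 and 0.984), lower in 3 of 3 animals.

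Other genes of guidance signalling were taken from 2 lists and read against the 18.1% of all genes called in at least 1 cluster and the 12.6% called in at least 1 zone. Of 52 cytoplasmic signalling genes, 48 were tested in clusters and 20 were called in at least 1, and 10 of 46 tested were called in at least 1 zone. Of 20 receptors and partners outside the families above, 7 of 17 were called in a cluster and 3 of 18 in a zone. The largest fitted cytoplasmic differences were those of Chn2, a Rac regulator acting below Eph receptors and plexins, lower in cluster 3 (adjusted p = 0.014), and Vav2, a guanine nucleotide exchange factor, higher there (adjusted p = 0.0383). Among the partners they were Dscaml1, a cell adhesion molecule, lower in cluster 2 (adjusted p = 2.2e-06), and Rgma, a Neo1 ligand, higher in cluster 7 (adjusted p = 0.0232). Rgma in cluster 7 rested on 65 counts, 51 of them from animal 2, and was higher in 2 of 3 animals. It was also called higher in cluster 5 (adjusted p = 0.0266). In the zones the largest cytoplasmic differences were those of Pdzrn3, lower in zone 3 (log2 fold change -2.08, adjusted p = 4.9e-05), and Rras, lower in zone 4 (-2.04, adjusted p = 0.0118). Among the partners they were Cntn2, lower in zone 2 (-1.43, adjusted p = 0.000227), and Flrt3, lower in zone 3 (-1.27, adjusted p = 0.0104).

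Other ligand and receptor pairs were examined in the same way. Of 16 pairs in the clusters, Slit2 with Robo1 had the highest Spearman rho, 0.81, and the pairs of Efnb3 with Epha4 and of Slit1 with Robo2 had -0.50 and -0.57. In the zones, where 14 pairs had both genes tested, Efnb3 with Epha4 had -0.78 and Slit2 with Robo1 -0.07. Each is a description over 8 or 9 points that share libraries.

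Detection also differed among the guidance genes. A count was found in over 50% of cells for 10 of the 59 genes and in under 5% for 6, among them Unc5b, Sema3b and Ntn1, the last of which was not tested for lack of counts. In the sections, 19 of 74 genes had a count in over 20% of spots, and 4 had 3 counts or fewer over all 1973 spots. Epha4 was detected in 90.6% of cells and 55.4% of spots. Nrp1 was detected in 38.6% of cells and 3.90% of spots, at 75.0, 43.9 and 40.1 CPM in the cells of animals 1, 2 and 3 and at 4.74 and 6.10 CPM in the sections, and it was not tested in zones. The 2 assays differ in chemistry and depth, and no test between them was made. Of the 72 guidance genes found in the RefSeq gene table, 40 overlap another gene and 8 a protein-coding one, Ntn5, Ntn3, Unc5a and Sema3b among them.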

How the data were processed

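RNA counts were taken from 765 dissociated neurons (11 samples, 3 animals) and 1973 Visium spots (2 sections). Both tables hold raw counts, as deposited by the authors: whole numbers for each gene in each cell or each spot. Seurat was used for the cells and Space Ranger with Seurat for the spots, on builds NCBIM37 (cells) and mm10 with NCBIM37 (spots), per the submitters' processing notes; the aligner, the counter, its strand setting and the cell filters are not given in the sources used here. The section names S4 and S8 could not be tied to single samples, so they serve as replicate names only.

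The guidance genes and all lists were chosen with earlier results of these data known. Every cell and spot in the tables was used, with no doublet caller. With the guidance genes left out, values were scaled to 10000 per cell, log-transformed and clustered with scanpy 1.11.5 (2000 variable genes, 30 principal components, 15 neighbours, Leiden resolution 1, seed 1; spots centred by gene within section). A first run had scaled genes to unit variance; it was replaced after its cluster tables were seen and before any guidance gene was tested, and it is kept as an alternative. Clusters may thus differ from the authors' own types, and clusters 9, 10 and 11 and zones 10 and 11 had 10 cells or spots in fewer than 2 animals or sections and were not tested.

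Counts were summed per animal and cluster (10 or more cells) or per section and zone, and the quasi-likelihood test of edgeR 4.0.16 was run under R 4.3.3 after filterByExpr and TMM scaling. The block fits the design, since each animal gave cells to most clusters and every level, and each section held every zone tested. The SE is the fold change divided by the square root of F. Of 58 guidance genes tested in 8 clusters, and 51 in 9 zones, all calls are named; full values go to up to 3 higher and 2 lower genes of largest fold change with the same direction in every animal or section, and further genes were given values after they had been seen. Cluster and zone pairs were set side by side after their leading genes were seen. DESeq2 1.42.0, other scalings, filters, clusterings and leaving out each animal were alternatives.

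The test was tried on simulated data: with 100 genes changed at each size, it recovered 18 at a log2 change of 1.5 and 82 at 3 for cluster 5 (12495 genes), 91 and 100 for zone 3 (10438 genes), and 19 and 97 for posterior against anterior matched cells (12191 genes). False calls in these runs, each with genes of both sizes, were 7, 2 and 1. Unchanged genes had the same share of every simulated library, and all genes a common dispersion. No animal or section effect and no differences among the other groups were simulated, so these rates need not hold for the real data. Whether the counts of dissociated cells are of reads or of molecules is not given in the sources used here, and intervals and floors (3 counts) cover counting error only.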

Additional observations from a re-analysis of the deposited data

Results flagged for a closer look

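Clusters 10 and 11 held 11 cells each, too few for the test, and some guidance genes stood there over 2 times above the highest level of the 8 tested clusters. All levels here are taken over all cells of a cluster, without TMM factors. The level that 3 counts would give is 2.48 CPM in cluster 11 and 1.84 CPM in cluster 10, and there are no control samples to compare with. Slit1, a Robo ligand, stood at 149.9 CPM in cluster 11, with counts in 7 of 11 cells, against at most 39.0 CPM in the tested clusters. Sema4f stood at 103.5 CPM (5 cells, against 40.3 CPM), Sema6a at 45.5 CPM (7 cells, against 19.2 CPM) and Ntn1 at 21.5 CPM (5 cells, against 0.993 CPM). Ntn1, the best known Dcc ligand, had too few counts to be tested elsewhere. In 1 to 3 cells each, Plxna3 stood at 30.6 CPM (against 11.4 CPM), Sema4c at 17.4 CPM (against 5.60 CPM), Epha3 at 13.2 CPM (against 2.09 CPM) and Plxnb1 at 10.8 CPM (against 3.20 CPM) in cluster 11. In cluster 10 Plxna3 stood at 30.6 CPM, from 3 cells. These values have no test.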

How the results depend on the processing

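The 44 higher and 19 lower calls over the neuron clusters became 47 and 36 with DESeq2, and no call changed direction under any setting run. Over all genes tested, 2938 higher and 1454 lower calls became 2796 and 2745. Sums per sample, which left 4 clusters, gave 14 and 10, and 1293 and 877 over all genes. Leaving out animal 1, 2 or 3 gave 26, 27 and 39 higher and 12, 10 and 16 lower calls, so 26 to 39 and 10 to 16. Where it left cluster 3, 6 or 8 with 1 animal, that animal was assumed to vary like the others. Higher and lower calls over all genes fell too in each of these fits. Without the replicate block the counts were 49 and 23 in clusters and 14 and 16 in zones, against 17 and 20 with it. All genes gave 3320 and 1453 in clusters and 1035 and 598 in zones, against 1253 and 849 with the block. In zones DESeq2 gave 13 lower calls, and 511 over all genes. Scaling genes to unit variance before clustering, an alternative added after seeing the data, gave 49 and 21 guidance calls in clusters and 22 and 26 in zones. Over all genes it gave 3168 and 1544 in clusters and 1418 and 924 in zones. Of the single calls in clusters, 59 of 63 remained with DESeq2, 49 with thinned cells, and 36, 31 and 41 without animal 1, 2 or 3. In zones 25 of 37 remained with DESeq2. The causes were not tested. Between posterior and anterior neurons, all cells, the 1 call became 3 with DESeq2, 0 without the replicate block and 0 to 0 without each animal in turn. Leaving out a section leaves no residual degrees of freedom and was not run. Depth limited which guidance genes had enough counts for a test, 58 of 59 in cells and 51 of 74 in sections.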
